A study of Mus musculus with 37 samples.

Results

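The mRNAs of the MHC class II presentation pathway were followed in bone marrow-derived macrophages (BMDMs) stimulated through TLR4. The rows of the deposited expression table were chosen by gene symbol, and all 8 symbols were found among its 24016 genes. They are H2-Aa, H2-Ab1, H2-Eb1, H2-DMa, H2-DMb1, H2-DMb2, Cd74 and Ciita. Of these, 5 had enough reads to be counted among the 11016 genes analyzed (a mean of at least 50 reads over the 8 libraries). H2-Aa, H2-Eb1 and Ciita had fewer reads and are described by their values.

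MHC class II molecules show peptides from endocytosed proteins to CD4+ T cells. Each is a pair of an alpha and a beta chain that is assembled with the invariant chain, which guides it to endosomes and keeps its groove closed until a peptide is loaded there. H2-DM releases the remaining fragment of the invariant chain and helps to select the peptide. Transcription of these genes depends on CIITA, a coactivator without DNA binding of its own that is recruited by a complex assembled on conserved promoter boxes. Macrophages keep little of it at rest and raise it on exposure to interferon-gamma.

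PolyA RNA was sequenced from WT BMDMs and from BMDMs of mice lacking Arntl, the gene for the clock transcription factor Bmal1 (the Arntl-/- group, named BmalKO in the labels). Kdo2 lipid A (KLA), a defined part of lipopolysaccharide that is sensed by TLR4, was given for 0, 6, 24 or 48 h, with 1 library for each genotype and time. The labels place both genotypes on the C57BL/6J strain, the deletion is systemic, and the donors were male mice of 6 to 9 weeks whose marrow was cultured for 6 days with M-CSF. The number of mice behind each library is not stated in the sources used here. With 1 library per condition there is no spread between replicates and no test was made, and each difference given here is one between 2 libraries.

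The 8 libraries held 8587560 to 27036783 reads on genes, the most in WT cells at 6 h and the fewest in Arntl-/- cells at 48 h. Levels are given as scaled FPKM, the deposited FPKM (per 10000000 reads and per kb of exon) divided by a size factor of 0.909 to 1.11. Log2 differences were taken after adding 0.1, folds are ratios of scaled FPKM, and a difference of at least 1.5-fold was counted as higher or lower. The number of reads behind each value could be worked out from the table, and 3 or fewer were treated as the floor of detection. Counting intervals (95%, Clopper-Pearson) take every read as independent. The read numbers did not look independent, since genes with exactly 6 reads (298 to 476 per library) far outnumbered genes with 5 (39 to 110) or 7 (89 to 190). How both mates of a fragment entered the counts is not given in the sources used here. A wider interval that takes 6 reads as 1 fragment is therefore given beside it, and both cover counting error only. Arntl itself was lower in Arntl-/- cells at 4 of 4 times, at 14.0, 11.4, 19.0 and 20.4 against 34.7, 32.6, 35.9 and 39.1 scaled FPKM at 0, 6, 24 and 48 h. All 10 macrophage markers found in the table were above the floor. In bulk RNA, fewer cells of a type and less RNA per cell cannot be told apart.

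Promoter sequences are shown first because CIITA acts through letters that these genes share. Of the 8 members, 5 were matched by symbol to RefSeq promoters of GRCm38.p6 that can be shown, and 4 of these are printed as the 140 bases before the annotated start. Cd74 is not shown, and H2-Ab1 and Ciita were not matched. The letters searched on both strands were GATTGG (the core of the Y box, bound by NF-Y), AACNGATG (part of the X box, bound by the RFX complex), TGACGTCA (the cAMP response element, bound by CREB) and CACGTG (the E-box, bound by Bmal1 with its partner). They were chosen after the sequences had been read. Matches are in capitals.
H2-Aa (chr17:34287824-34287963, minus strand): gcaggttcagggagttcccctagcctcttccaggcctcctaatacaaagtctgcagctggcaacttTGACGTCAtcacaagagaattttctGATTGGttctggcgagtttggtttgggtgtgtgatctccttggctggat
H2-Eb1 (chr17:34305727-34305866, plus strand): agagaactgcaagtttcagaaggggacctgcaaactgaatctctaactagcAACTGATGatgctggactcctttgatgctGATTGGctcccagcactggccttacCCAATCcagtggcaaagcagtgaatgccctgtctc
H2-DMb1 (chr17:34153051-34153190, plus strand): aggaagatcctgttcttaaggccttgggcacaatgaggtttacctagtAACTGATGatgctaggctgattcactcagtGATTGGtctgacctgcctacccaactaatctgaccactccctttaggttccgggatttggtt
H2-DMb2 (chr17:34145109-34145248, plus strand): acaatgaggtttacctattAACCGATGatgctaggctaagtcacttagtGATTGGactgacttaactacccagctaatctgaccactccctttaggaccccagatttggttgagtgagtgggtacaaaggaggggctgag

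In H2-Eb1, H2-DMb1 and H2-DMb2 the first base of AACNGATG stood 29, 30 and 30 bases before that of the Y box core. The letters GATTGG began at position -60 in H2-Eb1, -62 in H2-DMb1, -91 in H2-DMb2 and -49 in H2-Aa. H2-Eb1 had a second match, on the opposite strand at -35. H2-Aa had no AACNGATG and had TGACGTCA at -74, 25 bases before GATTGG. No printed match overlapped another. H2-DMa, with 2 annotated starts, had 1 match in all, a GATTGG at -199 of the second start. None of the searched windows of these 5 genes, which run from 250 bases before to 50 after the start, held CACGTG. Cd74, H2-Ab1 and Ciita are not among these genes, so that nothing is given on their promoters. Over all 32851 promoters of the same length, GATTGG was found in 16.1%, AACNGATG in 2.32%, TGACGTCA in 1.79% and CACGTG in 7.15%. These matches describe letters in a window and were not tied to binding.

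By position, 6 of the members lie within the MHC region of chromosome 17 (mm9). The H2-DM genes come first, H2-DMa at chr17:34259777-34276046, H2-DMb2 at chr17:34282361-34288040 and H2-DMb1 at chr17:34290136-34297174, all on the plus strand. H2-Ab1 follows at chr17:34400172-34406363 (plus), H2-Aa at chr17:34419696-34424716 (minus) and H2-Eb1 at chr17:34442812-34453619 (plus). Cd74 is at chr18:60963503-60972306 and Ciita at chr16:10489874-10527657, both on the plus strand. Values are sums over the exons of 1 RefSeq transcript per gene, with reads of both strands counted. H2-Aa and H2-Ab1 are on opposite strands and share 17 exon bases in GENCODE vM1 (NCBIM37). Their RefSeq spans given above do not overlap, so these bases are not shared by the exons that were counted.

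Levels per length differed widely among the members. The mean over the 8 libraries was highest for H2-DMb1 (144 scaled FPKM) and H2-Ab1 (123), followed by Cd74 (95.8), H2-DMa (92.9) and H2-DMb2 (36.2). H2-Eb1 (13.7) and H2-Aa (10.9) were about an order of magnitude lower than H2-Ab1. Ciita was the lowest at 0.555 scaled FPKM, with a mean of 7.6 reads. Among genes with any read, H2-DMb1 stood at the 74.5th percentile of mean level and Ciita at the 18.8th. In this order the ranges over the libraries overlapped between neighbours from H2-DMb1 to H2-DMa and between H2-Eb1 and H2-Aa. They did not overlap between H2-DMa and H2-DMb2, H2-DMb2 and H2-Eb1, or H2-Aa and Ciita.

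**Figure D1:**
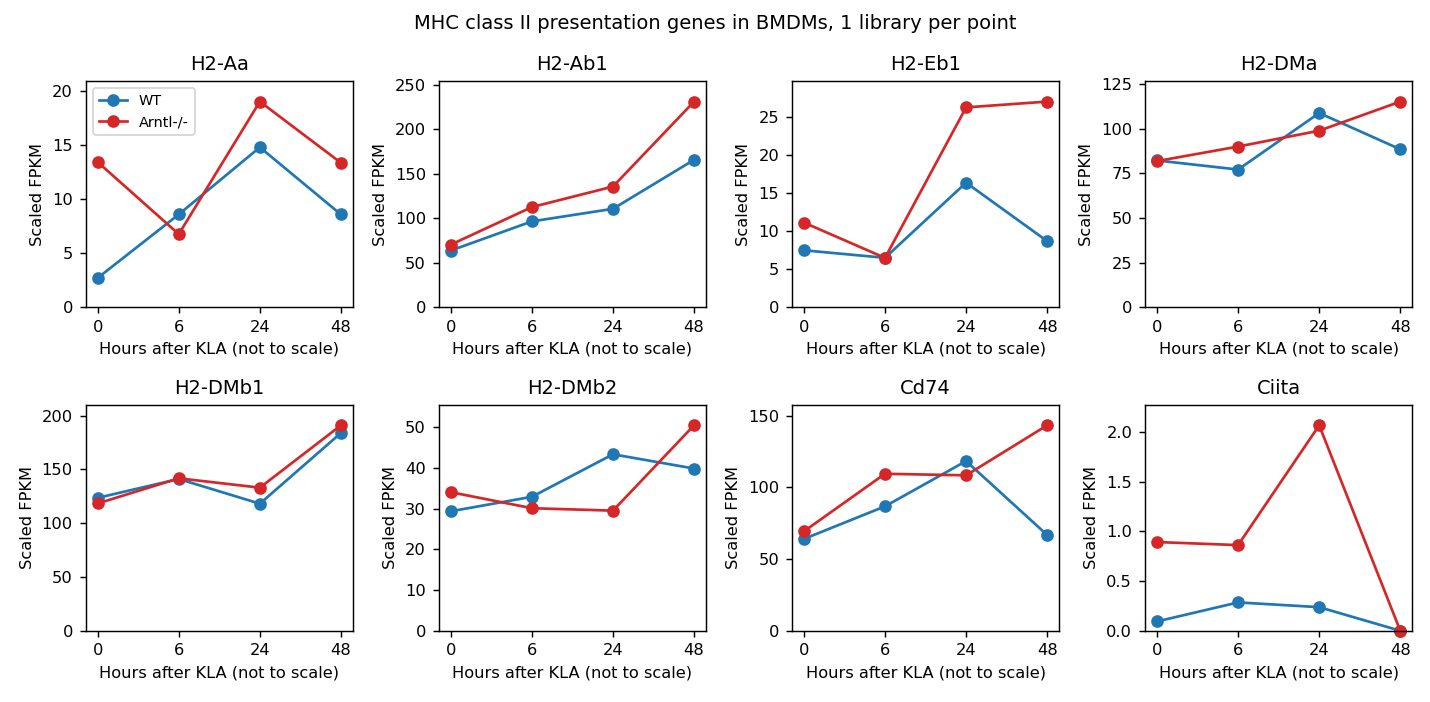
Scaled FPKM (y axis, linear from 0) of the 8 genes at 0, 6, 24 and 48 h after KLA (x axis, evenly spaced) in WT (blue) and Arntl-/- BMDMs (red), 1 library per point and no error bars. H2-Ab1 climbs to 165 in WT and 231 in Arntl-/- cells at 48 h, while Cd74 at 48 h is at 66.8 in WT and 143 in Arntl-/- cells.

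H2-Ab1, the beta chain of the I-A molecule, was the class II chain gene with the clearest course. In WT cells it was at 63.5, 96.3, 110 and 165 scaled FPKM at 0, 6, 24 and 48 h, from 158, 552, 217 and 259 reads. In Arntl-/- cells it was at 70.1, 112, 135 and 231, from 257, 335, 398 and 348 reads. Each later library was higher than the one before in both genotypes, and the Arntl-/- library was the higher at 4 of 4 times, as it was for 8.02% of all genes analyzed. From 0 to 48 h the level was 2.61-fold higher in WT (counting interval 2.13 to 3.20, wider interval 1.57 to 4.40) and 3.29-fold higher in Arntl-/- cells (2.79 to 3.88, wider 2.18 to 5.01). The log2 ratio of Arntl-/- to WT was 0.14, 0.22, 0.29 and 0.48 at 0, 6, 24 and 48 h, each under 1.5-fold. At 48 h the ratio was 1.40 (1.18 to 1.65), and its wider interval of 0.925 to 2.12 included 1.

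H2-Aa encodes the alpha chain that pairs with the product of H2-Ab1, but its mRNA did not follow the same course. WT cells had 2.69, 8.57, 14.8 and 8.55 scaled FPKM from only 6, 44, 26 and 12 reads. Arntl-/- cells had 13.4, 6.74, 19.0 and 13.3, from 44, 18, 50 and 18 reads. The unstimulated WT library was the lowest of the 8 and the Arntl-/- library at 24 h the highest. Before KLA the ratio of Arntl-/- to WT was 4.98 (2.11 to 14.3, wider interval 0.65 to 223). From 0 to 6 h the level was 3.18-fold higher in WT cells (1.35 to 9.14) and 0.503 times its start in Arntl-/- cells (0.273 to 0.888). The wider intervals of both changes, 0.415 to 143 and 0.0846 to 2.16, included 1.

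H2-Eb1, the beta chain of I-E, was also low. In C57BL/6 mice the I-E alpha chain is not made, and the pseudogene row H2-Ea-ps was at 0 reads in all 8 libraries. H2-Eb1 was at 7.46, 6.47, 16.3 and 8.66 scaled FPKM in WT cells (26, 52, 45 and 19 reads) and at 11.1, 6.46, 26.2 and 27.0 in Arntl-/- cells (57, 27, 108 and 57 reads). The genotypes were level at 6 h. WT cells then peaked at 24 h and were lower at 48 h, whereas Arntl-/- cells at 48 h were still at their level of 24 h. The ratio of Arntl-/- to WT at 48 h was 3.12 (1.83 to 5.55), with a wider interval of 0.808 to 16.8.

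Cd74, the invariant chain, had the largest difference between genotypes among the 5 members with enough reads. WT cells were at 64.0, 86.8, 118 and 66.8 scaled FPKM (163, 509, 238 and 107 reads) and Arntl-/- cells at 69.3, 109, 108 and 143 (260, 334, 326 and 221 reads). Up to 24 h the genotypes were within 1.5-fold of each other, with log2 ratios of 0.11, 0.33 and -0.13. At 48 h the Arntl-/- level was 2.15-fold that of WT (1.70 to 2.73), and the wider interval of 1.19 to 4.01 lay above 1. From 24 to 48 h the log2 difference was -0.82 in WT (0.564 times, 0.445 to 0.712) and 0.40 in Arntl-/- cells (1.32-fold, 1.11 to 1.57). The wider intervals, 0.304 to 1.01 in WT and 0.846 to 2.05 in Arntl-/- cells, included 1. The difference between genotypes at 48 h rests on 1 library of each, the least deep of either genotype.

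The H2-DM genes, which encode the peptide editor, differed little between genotypes. H2-DMa was at 82.3, 77.2, 109 and 88.6 scaled FPKM in WT and at 81.9, 90.1, 99.0 and 115 in Arntl-/- cells. H2-DMb1 was at 124, 141, 118 and 184 in WT and at 118, 142, 133 and 191 in Arntl-/- cells, the closest agreement between genotypes of any member, with log2 ratios of -0.06, 0.01, 0.17 and 0.05. The intervals of the H2-DMb1 ratio ran from 0.83 to 1.32 over the 4 times, and the wider ones from 0.67 to 1.69. From 0 to 48 h H2-DMb1 was 1.49-fold higher in WT and 1.61-fold higher in Arntl-/- cells.

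H2-DMb2, the second beta chain gene of H2-DM, had fewer reads (41 to 124 per library). It was at 29.4, 32.9, 43.4 and 39.8 scaled FPKM in WT and at 34.0, 30.1, 29.5 and 50.5 in Arntl-/- cells. The only ratio of a member with enough reads that came near 1.5-fold lower in Arntl-/- cells was that of H2-DMb2 at 24 h, 0.681 (wider interval 0.246 to 1.89). H2-DMb1 and H2-DMb2 are near copies: 754 of the 786 coding bases are identical (95.9%), the longest identical run is 221 bases, and 27.1% of the 50-base windows of H2-DMb1 occur in another gene's transcript (365 of 1348). How the counting divided such reads is not given in the sources used here, so the values of this pair are uncertain. Within a library H2-DMb1 was 2.73 to 4.71 times H2-DMb2 per length.

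Ciita, the coactivator, was near the floor of detection in WT cells. They had 1, 7, 2 and 0 reads at 0, 6, 24 and 48 h (0.0941, 0.285, 0.238 and 0 scaled FPKM). Arntl-/- cells had 14, 11, 26 and 0 reads (0.893, 0.862, 2.07 and 0 scaled FPKM). The Arntl-/- library was higher at the 3 times at which any read was found. The ratio was 9.49 at 0 h (1.45 to 402), 3.02 at 6 h (1.07 to 9.19) and 8.70 at 24 h (2.18 to 75.6), and with 6 reads taken as 1 fragment all 3 intervals included 1. The WT reads at 0 and 24 h were themselves under the floor of 3. At 48 h the absence of reads allowed up to 0.448 scaled FPKM in WT and 0.465 in Arntl-/- cells, taken at 3 reads. The Arntl-/- level at 24 h was 4.44 times that floor of 48 h, which leaves out the counting error at 24 h. The counting interval of the ratio of 48 h to 24 h ran from 0 to 0.297, and the wider one, from 0 to 2.62, included 1. Ciita was at 0 reads in the library in which H2-Ab1 and Cd74 were at their highest.

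B cell and dendritic cell markers were read beside these genes, since both cell types express Ciita and class II strongly. Of 8 B cell markers 7 were above the floor in some library, and their summed level was 33.3 to 62.3 scaled FPKM in WT and 39.7 to 80.0 in Arntl-/- cells, mostly Cd79b and Cd22. These markers did not move as one. Cd79b had 61, 170, 36 and 57 reads in WT and 90, 93, 81 and 83 in Arntl-/- cells and was highest per length at 48 h in both genotypes, with a log2 ratio of 0.59 at 24 h and 0.60 at 48 h between them. Cd22 had 131, 232, 73 and 100 reads in WT and 127, 87, 128 and 90 in Arntl-/- cells, with a log2 ratio of -0.60 at 0 h. Cd79a had 0, 15, 7 and 2 reads in WT and 5, 17, 20 and 10 in Arntl-/- cells, and Ebf1 had 17, 16, 6 and 38 in WT and 10, 10, 0 and 8 in Arntl-/- cells. Ms4a1, which encodes CD20 of mature B cells, had 11, 0, 0 and 0 reads in WT and 3, 0, 16 and 0 in Arntl-/- cells at the 4 times. It was highest per length in the Arntl-/- library at 24 h, the library in which Ciita and H2-Aa were highest as well, and was at 0 in both libraries of 48 h. Of 10 dendritic cell markers 9 were above the floor in some library and Cd209a was at 0 in all, with sums of 48.9 to 93.1 in WT and 41.6 to 95.1 in Arntl-/- cells. Flt3 had 0, 2, 0 and 0 reads in WT and 8, 4, 0 and 2 in Arntl-/- cells, while Zbtb46 had 8, 18, 0 and 3 in WT and 4, 0, 0 and 0 in Arntl-/- cells. Ccr7 had 27, 26, 14 and 6 reads in WT and 51, 44, 43 and 10 in Arntl-/- cells, with log2 ratios of 0.35, 1.67, 1.02 and 0.77, above 0 at 4 of 4 times. Itgax, the one with a mean of at least 50 reads, had ratios of 0.54, -0.94, -0.47 and -0.14, so that these markers did not go one way either. Of 6 T cell markers 2 were above the floor, and Cd3e and Cd3g were at 0 in all. The part of such cells in the values of Ciita and H2-Aa was not tested.

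**Figure D2:**
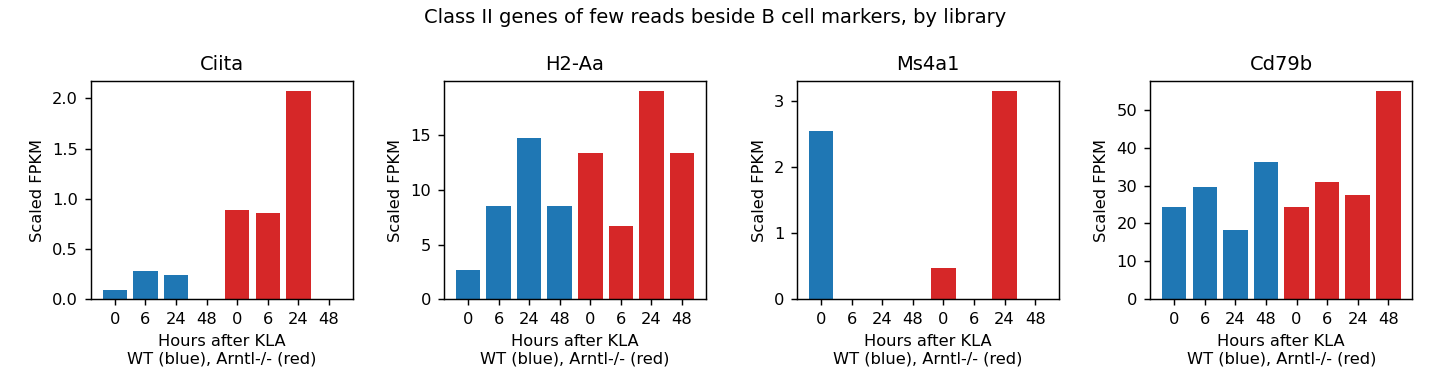
Scaled FPKM (y axis, linear from 0) of Ciita, H2-Aa and the B cell markers Ms4a1 and Cd79b in the 4 WT (blue bars) and 4 Arntl-/- libraries (red bars), 1 library per bar. Ciita and Ms4a1 are at 0 in both libraries of 48 h, and they and H2-Aa are highest in the Arntl-/- library of 24 h, whereas Cd79b is highest in that of 48 h.

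Counted over the members, the genotype difference was mostly under 1.5-fold. Of the 5 with enough reads, 0 were 1.5-fold higher or lower at 0 h, where 4.05% of all genes analyzed were higher and 2.25% lower. At 6 h the count was again 0 (2.31% higher and 3.15% lower of all genes), as it was at 24 h (4.78% and 3.39%). At 48 h 1 of 5 was higher, Cd74, and 0 were lower, against 7.29% and 6.18% of all genes. The median log2 ratio of the 5 was 0.11, 0.22, -0.13 and 0.38 at 0, 6, 24 and 48 h, while that of all genes analyzed lay between -0.02 and 0.01. Where H2-Aa and H2-Eb1 were included, the value was 0.0063 at 6 h and 0.17 at 24 h. At 48 h the log2 ratio of all 5 was above 0, as was that of 47.7% of all genes. With the 3 members of few reads, 8 of the 31 ratios that could be formed were at least 1.5-fold higher in Arntl-/- cells and 0 were lower. These 8 were Ciita at 0, 6 and 24 h, H2-Aa at 0 and 48 h, H2-Eb1 at 24 and 48 h and Cd74 at 48 h. For 7 of them the gene had few reads, where such differences were common in both directions. Of all genes with a mean of 5 to 50 reads, 35.4%, 21.3%, 36.2% and 39.4% were 1.5-fold higher in Arntl-/- cells at 0, 6, 24 and 48 h, and 26.7%, 32.1%, 28.7% and 34.2% were lower.

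Counting error was then set beside these ratios. The plain interval lay above 1 in 13 of the 31 and under 1 in 0 of them. Of the 5 members with enough reads, it lay above 1 in 0, 3, 1 and 3 at 0, 6, 24 and 48 h. Among all genes analyzed it lay above 1 in 24.8%, 31%, 24.2% and 22.5% and under 1 in 28.5%, 25.9%, 26% and 26.9% at 0, 6, 24 and 48 h. With 6 reads taken as 1 fragment, the interval of 1 ratio lay above 1, that of Cd74 at 48 h. Of all genes analyzed, 5.06%, 15.8%, 4.4% and 4.01% lay above 1 in this way at 0, 6, 24 and 48 h, and 9.94%, 4.88%, 7.38% and 5.97% lay under 1.

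**Figure D3:**
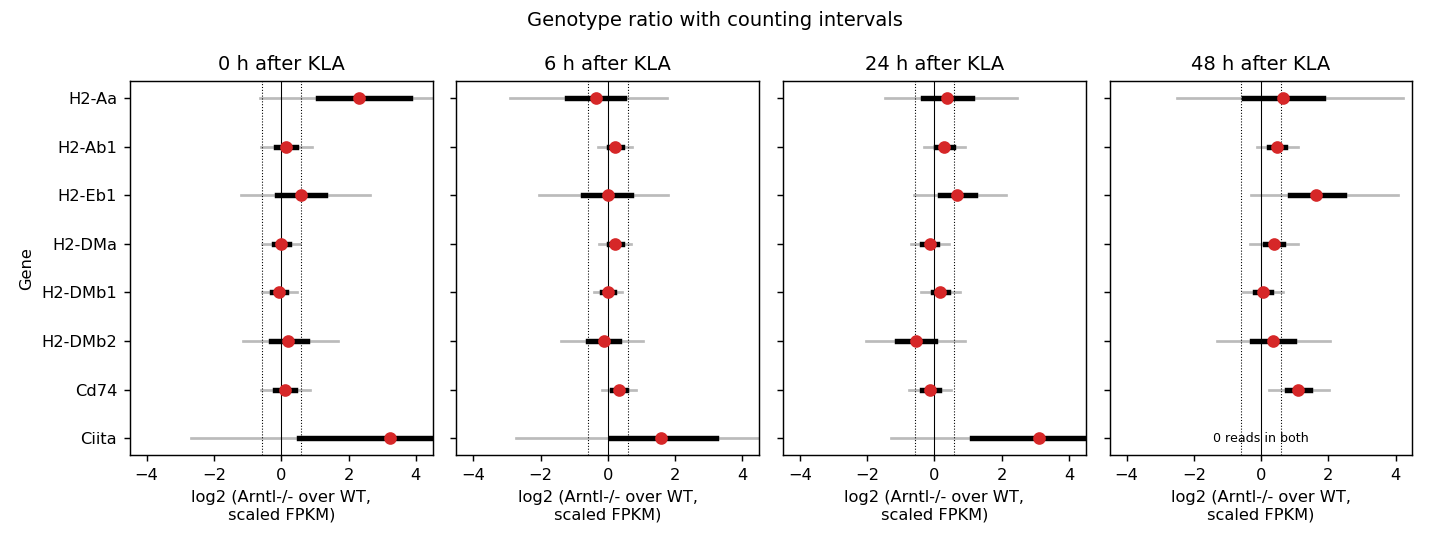
Log2 ratio of scaled FPKM in Arntl-/- over WT BMDMs (x axis, red points, without added 0.1) for the 8 genes at each time, with the 95% counting interval (black) and the wider one that takes 6 reads as 1 fragment (grey). Lines that reach the edge continue beyond it, and dotted lines mark 1.5-fold. At 48 h the grey line of Cd74 lies to the right of 0, and Ciita has 0 reads in both libraries.

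After KLA the members were more often higher than lower than at 0 h. In WT cells 1 of the 5 was at least 1.5-fold higher at 6 h than at 0 h (H2-Ab1, 1.52-fold), where 6.13% of all genes analyzed were, and it was under 1.5-fold with upper-quartile scaling (log2 0.57). At 24 h it was 2 of 5 (H2-Ab1 at 1.74-fold and Cd74 at 1.85-fold) against 9.09%, and at 48 h 1 of 5 (H2-Ab1) against 13.4%. The Arntl-/- cells had 2 of 5 at 6 h (H2-Ab1 at 1.60-fold and Cd74 at 1.58-fold) against 3.54%, the same pair at 24 h (1.93-fold and 1.56-fold) against 8.04%, and 3 of 5 at 48 h (H2-Ab1, Cd74 at 2.07-fold and H2-DMb1) against 15.6%. With the values as deposited, Cd74 at 24 h (log2 0.58) and H2-DMb1 at 48 h (0.52) were under 1.5-fold. With upper-quartile scaling or a correction for expression level, 2 of 5 in WT and 5 of 5 in Arntl-/- cells were higher at 48 h. None of the 5 was 1.5-fold lower than at 0 h in either genotype, where 3.71%, 9.54% and 16.0% of all genes were in WT and 4.05%, 10.1% and 18.0% in Arntl-/- cells at 6, 24 and 48 h. Of the members with fewer reads, H2-Aa and H2-Eb1 at 6 h were at 0.503 and 0.582 times their 0 h level in Arntl-/- cells. In WT cells they were at 3.18 and 0.868 times it, and the wider intervals of these changes included 1. The median log2 change of the 5 was 0.19, 0.56 and 0.44 in WT and 0.26, 0.27 and 0.69 in Arntl-/- cells at 6, 24 and 48 h. All changes within a genotype share its 0 h library. Markers of cell types changed over the same time. At 48 h 6 of 10 macrophage markers in WT and 7 of 10 in Arntl-/- cells were at least 1.5-fold higher than at 0 h (2 and 1 of 10 with a correction for expression level), as were Itgax and 5 of 5 stromal markers with enough reads in each genotype, and 2 of 2 neutrophil markers were lower in each. Of the 2 B cell markers with enough reads, Cd79b and Cd22, 2 were 1.5-fold higher at 48 h in Arntl-/- cells (log2 1.16 and 0.78). In WT cells 0 of 2 were (log2 0.57 and 0.28). In each genotype the 48 h library was the least deep, and at most 3 tags per position were counted. The part of depth in the marker changes, and of such cells in the members' changes, was not tested.

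Between 24 and 48 h, 1 of the 5 was at least 1.5-fold higher at the later time (H2-DMb1, 1.56-fold) and 1 was lower (Cd74, 0.564 times) in WT cells, against 8.53% and 10.6% of all genes. In Arntl-/- cells 2 of 5 were higher (H2-Ab1 at 1.70-fold and H2-DMb2 at 1.71-fold) and 0 were lower, against 7.6% and 9.9%. The median log2 change was -0.12 in WT and 0.52 in Arntl-/- cells. This difference between genotypes was not tested.

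Ratios between members within a library do not depend on the scaling of libraries. Per length, H2-Ab1 was 5.23 to 23.6 times its partner chain H2-Aa, with a median of 14.0, and the highest ratio rests on 6 reads of H2-Aa. It was 5.17 to 19.1 times H2-Eb1. Cd74 was 0.404 to 1.07 times H2-Ab1, and the lowest ratio was that of WT cells at 48 h. H2-DMb1 was 1.08 to 2.08 times H2-DMa.

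As a description, the levels of the members went together unevenly over the 8 libraries. On the log2 scale Pearson's r was 0.84 between H2-DMb1 and H2-Ab1, 0.82 between H2-Eb1 and H2-DMa and 0.82 between Cd74 and H2-DMa. It was 0.07 between H2-DMb1 and H2-Aa. The libraries share genotype, time and depth. The 10 genes whose profile was most like the mean standardized profile of the 5 members were Atf6b (r = 0.98 over 8 libraries), Myof, Plcb4, Pgm2, Mgst1, Gatad2b, Gpr108, Cope, Ppt2 and Klhl22 (r = 0.95). Of these, Atf6b (chr17:34784091-34792019) and Ppt2 (chr17:34753607-34764042) also lie near the class II genes on chromosome 17.

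The remaining genes of the pathway were described from lists of 47 genes, of which 46 were matched and 40 had enough reads. Between the genotypes 1, 2, 2 and 3 of the 40 were at least 1.5-fold higher in Arntl-/- cells at 0, 6, 24 and 48 h, and 0, 0, 0 and 1 were lower. These counts are near the shares of all genes (4.05%, 2.31%, 4.78% and 7.29% higher), so that the genes are listed as a description. Those higher were Socs1 at 0 h, Ctsz and Nfil3 at 6 h, Il10 and Cd83 at 24 h, and Nfil3, Cd80 and Cd40 at 48 h. The one lower was Il10 at 48 h, at 3.63 scaled FPKM from 6 reads against 15.7 from 27 reads. The median log2 ratio of the 40 lay between -0.05 and 0.10.

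The receptor for interferon-gamma was expressed, but the cytokine was hardly seen. Ifng was at 0 reads in 7 libraries and had 2 reads in Arntl-/- cells at 24 h. The receptor chain Ifngr1 was at 576, 532, 736 and 571 scaled FPKM in WT and at 569, 519.6, 674 and 562 in Arntl-/- cells, and differed by at most 0.13 on the log2 scale between genotypes.

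Genes for the proteins that assemble on the X and Y boxes were mostly within 1.5-fold of 0 h. Rfx5, a DNA-binding subunit of the RFX complex, was at 28.3, 44.6, 51.8 and 52.9 scaled FPKM in WT and at 36.3, 41.8, 54.8 and 46.3 in Arntl-/- cells. It was the one gene of 7 in this list that stood 1.5-fold higher than at the start in WT cells at 6, 24 and 48 h, where 6.13%, 9.09% and 13.4% of all genes did, so that nothing is read from the count. Arntl-/- cells had it 1.5-fold higher at 24 h. With the correction for expression level the WT value at 6 h was under 1.5-fold, and with the values as deposited the Arntl-/- value at 24 h was. Nfyc, a subunit of NF-Y, had a log2 change of -0.37 in WT and -0.65 in Arntl-/- cells over 48 h, the latter past 1.5-fold, as was that of Nfyb in Arntl-/- cells (18.0% of all genes were lower there), and neither was so with upper-quartile scaling.

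Peptide supply genes, the lysosomal proteases and their partners, gave counts that depended on the scaling. At 48 h 6 of 8 genes were at least 1.5-fold higher than at 0 h in WT and 6 of 8 in Arntl-/- cells (Ctss, Ctsl, Ctsb, Ctsd, Ctsz and Cst3 in each), against 13.4% and 15.6% of all genes. With the values as deposited it was 3 and 4 of 8, and with a correction for expression level 0 of 8 in both. Ctsz, a cathepsin, had a log2 change of 0.78 in WT and 1.02 in Arntl-/- cells, and Ifi30, a thiol reductase that opens disulfide bonds of antigens, one of 0.28 and 0.18. At 6 h 5 of 8 were lower in WT (Ctss, Ctsb, Ctsd, Ctsz and Cst3), against 3.71% of all genes, and 0 of 8 in Arntl-/- cells. The WT count at 6 h was 0 of 8 with the values as deposited and with that correction. The WT library of 6 h was the deepest and its summed macrophage markers were the lowest of the 8 (16480 scaled FPKM, against up to 39921). Those of 48 h were the least deep of each genotype, and at most 3 tags per position were counted. The part of each in these counts was not tested. With a correction for expression level, or with the values as deposited, 0 of the 40 pathway genes were lower at 6 h in WT cells.

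Of the inhibitors of class II or Ciita expression, 5 of 9 were higher at 24 h than at 0 h in WT cells, where 9.09% of all genes were, and 4 of 9 in Arntl-/- cells, where 8.04% were. Socs3, a feedback inhibitor of cytokine signaling, had the largest change of the list in WT at 24 h, 1.52 on the log2 scale, and 1.64 in Arntl-/- cells. March1, the ubiquitin ligase that removes class II from the surface, was at 154, 151, 226 and 201 scaled FPKM in WT and at 144, 152, 212 and 227 in Arntl-/- cells. March8, a related ligase, differed between genotypes by 0.29 on the log2 scale at 6 h and by less at the other times.

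Of the 3 co-stimulatory molecules, which accompany class II in antigen presentation, 2 were at least 1.5-fold higher in the Arntl-/- library at 48 h, where 7.29% of all genes were. Cd40 was at 29.6 in WT and 47.6 scaled FPKM in Arntl-/- cells (log2 ratio 0.68), Cd80 at 64.4 and 112 (0.80) and Cd86 at 58.4 and 86.8 (0.57, under 1.5-fold). At 6 h the ratios were -0.21, -0.13 and -0.08. H2-Oa, the alpha chain of the H2-DM inhibitor H2-DO, was at 13 reads in WT and 36 reads in Arntl-/- cells at 48 h (9.45 and 27.2 scaled FPKM), and at 25 and 2 reads at 6 h.

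**Figure D4:**
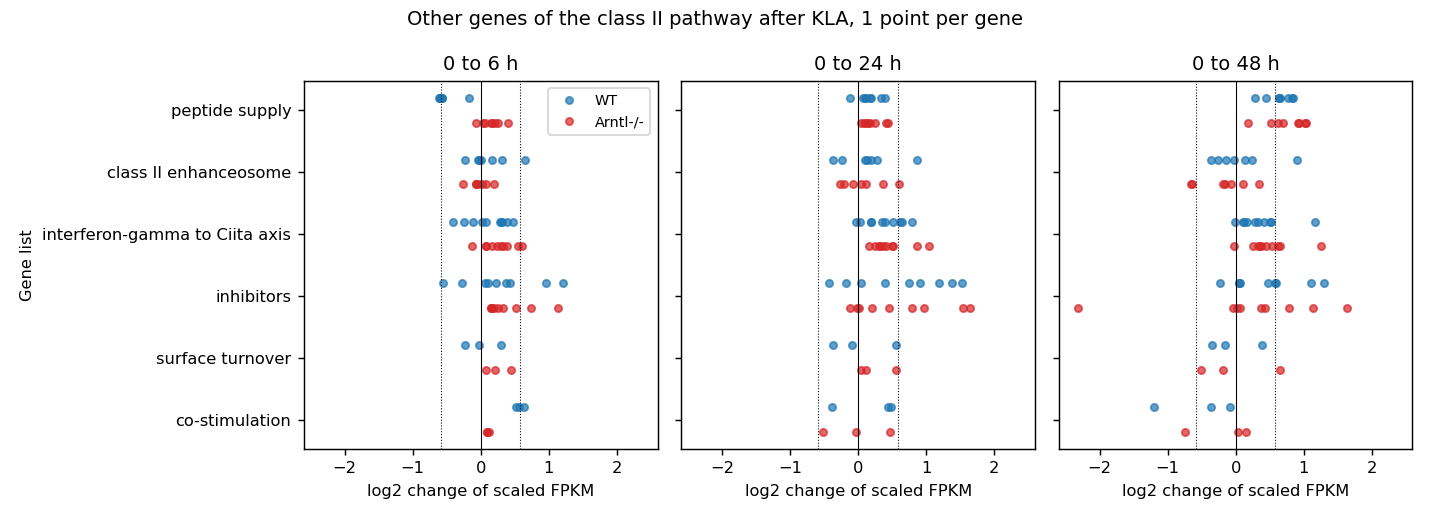
Log2 change of scaled FPKM from 0 h (x axis) of the pathway genes with enough reads, by list (y axis), in WT (blue) and Arntl-/- BMDMs (red), 1 point per gene and 1 library per condition. Dotted lines mark 1.5-fold. At 48 h 6 of 8 peptide supply genes lie to the right of the upper line in each genotype, and at 6 h 5 of 8 lie to the left of the lower line in WT and 0 of 8 in Arntl-/- cells. With a correction for expression level, which is not drawn, 0 of 8 lie past a line in these comparisons.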

How the data were processed

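PolyA RNA of 8 BMDM libraries (2 genotypes, 4 times after KLA, 1 library each) was analyzed, and the other 29 samples of the series were not analysed here. The authors mapped the paired ends with STAR (mm9). HOMER then counted tags of either strand over the exons of 1 RefSeq transcript per gene, with at most 3 tags per position. The deposited values are FPKM per 10000000 reads, and 4 value columns of other time points and 1 line that was a fragment of another were not used. Reads were recovered as whole multiples of the value of 1 read (100% of low values within 0.05 of a whole number) and served for depth, floors and counting intervals, not for a test. Libraries were scaled by median-of-ratios size factors. Genes with a mean of at least 50 reads were analyzed (11016), log2 values used a pseudocount of 0.1, and 1.5-fold was the size counted. The steps were tested on simulated data.

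Named genes are the 8 members, Arntl, and at most 3 genes of each pathway list by size of change or a repeated genotype difference. Genes named to spell out a count, the single B, T and dendritic cell markers, H2-Oa, H2-Ob, H2-Eb2, H2-Ea-ps, Ifng, Irf4, Nfil3, Nfyb and Cd80 fell outside this rule and were chosen after their values were seen. Members, lists and motifs were chosen with earlier results of these data known. The alternatives were no size factors, upper-quartile scaling, a lowess correction (fraction 0.3) over expression level, pseudocounts of 1 and 0.01, other sets of genes analyzed and a size of 2-fold. The wider interval, the same correction for the pathway counts, the scalings for single lists and the genes of 5 to 50 reads were added after seeing the data. Some genes of the lists are not reported here. Calculations used Python 3.11.15.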

Additional observations from a re-analysis of the deposited data

Results flagged for a closer look

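H2-Aa moved in opposite directions in the genotypes between 0 and 6 h, by at least 1.5-fold in each. Its log2 change was 1.63 in WT and -0.98 in Arntl-/- cells, a difference of -2.62 (Arntl-/- minus WT). The difference was not tested, and the WT level at 0 h rests on 6 reads.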

How the results depend on the processing

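Each value is 1 library against 1 library, so no replicate could be left out, and members with under 50 reads a library on average were limited by depth. The labels give no replicate numbers. The genotypes share the 4 times, and a fit of genotype with time as a term was possible but was not made. An exact sign-flip test over the 4 times, which cannot go below p = 0.125 (two-sided), was not made either. All 385 recomputed values of single members stayed within their counting interval's half-width of the reported one, and none at least 1.5-fold changed sign. For members of few reads the half-width was large, as for Ciita from 0 to 6 h in WT (counting interval 0.390 to 137). It had no bound where a library had 0 reads, so that little is read from this for such members. The log2 ratio of Cd74 at 48 h was 1.09 to 1.14 over the alternatives, and H2-Ab1 was higher in Arntl-/- cells at 4 of 4 times under each. Of the 8 ratios past 1.5-fold, H2-Eb1 at 24 h and H2-Aa at 48 h came to log2 0.58 with the correction for expression level, and Ciita at 6 h to 0.53 with a pseudocount of 1. A size of 2-fold left 6 of the 8. With 6 reads taken as 1 fragment, 1 interval in place of 13 lay above 1.

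With values as deposited, all genes shifted in their median by over 0.1 in 4 comparisons (log2 -0.13 between genotypes at 6 h, 0.13 and -0.14 in WT at 6 and 48 h and -0.19 in Arntl-/- cells at 48 h). Members 1.5-fold higher than at 0 h were then 2 in place of 1 in WT at 6 h, 1 in place of 2 in Arntl-/- cells at 24 h and 2 in place of 3 at 48 h. Pathway genes were 1 higher between genotypes at 6 h, 8 higher and 0 lower in WT at 6 h, 7 higher in WT at 48 h, 1 lower in Arntl-/- cells at 24 h and 8 higher in Arntl-/- cells at 48 h. Upper-quartile scaling gave 0, 2 and 5 members higher than at 0 h in WT at 6 h, in WT at 48 h and in Arntl-/- cells at 48 h, and so did the correction for expression level. That correction also gave 1 member lower between genotypes at 24 h (H2-DMb2, log2 -0.60) and 3 in place of 2 higher in WT at 24 h. For pathway genes it gave 1 higher between genotypes at 6 h, 0 lower in WT at 6 h, 5 higher in WT at 48 h, and, for the change to 48 h in Arntl-/- cells, 6 higher and 2 lower.

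Genes with a mean FPKM of at least 1 took in H2-Aa and H2-Eb1. The median genotype ratio was then 0.0063 at 6 h and 0.17 at 24 h, members higher in Arntl-/- cells were 1, 1 and 3 at 0, 24 and 48 h, members higher than at 0 h in WT were 2, 4 and 2 at 6, 24 and 48 h, and 2 were lower in Arntl-/- cells at 6 h. With more than 3 reads in both libraries the same counts were found, with 1 more higher between genotypes at 6 h (Ciita), 4 higher in Arntl-/- cells at 24 h, and medians of 0.17 for the genotype ratio at 24 h and 0.57 for the change to 24 h in Arntl-/- cells. The cause of these shifts was not tested beyond the members each set took in.

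Of all genes called, the share that was higher moved by over 10 points with values as deposited (genotypes at 0 h 77.9% against 64.3%, genotypes at 6 h 12.7% against 42.3%, WT to 6 h 90.5% against 62.3%, WT to 48 h 31.7% against 45.7%, Arntl-/- to 6 h 34.6% against 46.7%, Arntl-/- to 48 h 29.6% against 46.4%). With the correction for expression level it was 52.2%, 53.0% and 47.1% between genotypes at 0, 6 and 24 h (58.6% at 24 h before) and 58.5% in Arntl-/- cells to 6 h.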

Other observations

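Nfil3, a transcription repressor of the list of inhibitors, was at 44.1, 47.4, 100 and 66.3 scaled FPKM in WT and at 47.7, 79.8, 140 and 148 in Arntl-/- cells at 0, 6, 24 and 48 h, from 174 to 688 reads per library. The Arntl-/- library was the higher at 4 of 4 times, as it was for 8.02% of all genes analyzed, and the gene was chosen after its values were seen.

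H2-Ob, the beta chain of H2-DO, had 20, 38, 0 and 22 reads in WT and 13, 19, 27 and 15 in Arntl-/- cells. H2-Eb2 had at most 4 reads in a library. Irf4 had 13, 12, 2 and 0 reads in WT and 20, 17, 0 and 0 in Arntl-/- cells.

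Of 6 neutrophil and precursor markers 4 were above the floor in some library, and their summed level was 7.66 to 56.6 scaled FPKM in WT and 29.2 to 141 in Arntl-/- cells. All 7 stromal markers were above the floor, with sums of 482, 586, 684 and 1373 in WT and 364, 395, 426 and 781 in Arntl-/- cells at 0, 6, 24 and 48 h. The part of such cells in the values of the class II genes was not tested.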
